A study of Camponotus floridanus with 15 samples.

Results

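Hatching of the carpenter ant *Camponotus floridanus* was followed in 4 whole-body RNA libraries, 2 of embryos and 2 of instar 1 larvae, the stage between hatching and the first larval moult. They were chosen by the stage that the labels give, from 15 libraries in 8 groups, and all 10807 genes that passed a filter on low values, of 18979 in the deposited table, were compared. The other 11 libraries come from 6 later groups: larvae of instar 4, early pupae, late pupae of minors, late pupae of majors and adult minors, each with 2 libraries, and adult males with 1. All animals were kept in plaster nests in an ant facility, and the labels name no genotype, treatment, age in hours or colony for any group. They give neither sex nor caste for embryos and larvae, and nothing says that replicates came from separate animals or colonies. A p-value therefore sets a difference only against the spread between replicate libraries, from a fit on all 15, and that spread may be technical. A whole-body library mixes all tissues, and fewer cells of a type cannot be told apart from less RNA per cell.

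An ant embryo develops inside the egg on yolk and on RNA laid down by its mother, together with RNA from its own genome. The hatched larva is a legless, growing animal fed by workers, and its gut, fat body and cuticle are built for feeding. Larval tissues are taken apart and adult ones built in the pupa, which does not feed, and the adult feeds again.

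The files pair no gene ID with a gene name. Of the 18979 IDs 0 were found among 14020 RefSeq genes of the ant, and genes therefore appear under their IDs, with no function. No list of named genes could be applied, and the labelled stages could not be checked against marker genes. Levels are RPKM, which are reads scaled to gene length in kilobases and to the size of the library. Low values of a gene move in steps of 1 read, and these steps gave the read numbers behind the table. The 4 libraries hold 5550000 and 6420000 reads (embryo) and 6980000 and 4990000 reads (instar 1 larva) on the 12864 genes whose length could be recovered. A gene of 1000 nt needed 0.11 to 0.179 RPKM, or 3 reads, to be told from a count of 0, counting error alone considered. Between 9419 and 9883 genes stood at 1 RPKM or more in each of them.

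The reference names of all 15 libraries share 1 prefix, and the labels name no batch. The library codes that follow it start with another letter in both embryo than in both instar 1 libraries, and what that letter marks, which the labels do not say, cannot be told apart from stage.

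The libraries of one stage were not alike, and this touches every count that follows. On the deposited scale embryo replicate 1 lay above replicate 2 in 9271 of the 10807 genes. Median ratios to all 15 libraries were 2.332 and 1.616 for embryo and 1.882 and 1.786 for instar 1 larva. Each count is therefore given on the deposited scale and, where it matters, after division by these ratios, called rescaled here. After rescaling, 30 genes lay at least 2 log2 units apart between the embryo libraries and 27 between the instar 1 libraries. Between the stages the number depended on the instar 1 library. Replicate 1 differed from the embryo libraries in 93 and 83 genes, and replicate 2 in 300 and 246. By this count instar 1 larva replicate 1 lay closer to embryo than replicate 2 did, and the part of this difference in the counts was measured only by leaving each library out.

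From embryo to instar 1 larva 154 genes rose and 165 fell, which is 1.43% and 1.53% of the genes tested (limma on log2(RPKM + 1), adjusted p under 0.05). The median change was 2.03 log2 units among the genes that rose and -1.80 among those that fell, against -0.08 over all genes. On the rescaled scale 132 of 10619 genes rose (1.24%) and 94 fell (0.885%). The genes called in the same direction on both scales were 87 that rose and 78 that fell (0.805% and 0.722%). Changes of at least 2 log2 units were called for 81 rising and 62 falling genes on the deposited scale, and for 55 and 26 on the rescaled scale. A level of 100 RPKM in at least 1 of the 4 libraries was reached by 23 of the 154 (14.9%) and 19 of the 165 (11.5%), against 5.95% of all genes. IDs with the prefix XLOC made up 9 of the genes that rose and 14 of those that fell (5.84% and 8.48%), against 3.03% of all genes. Among the genes called on both scales they were 3 of 87 (3.45%) and 6 of 78 (7.69%).

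**Figure D1:**
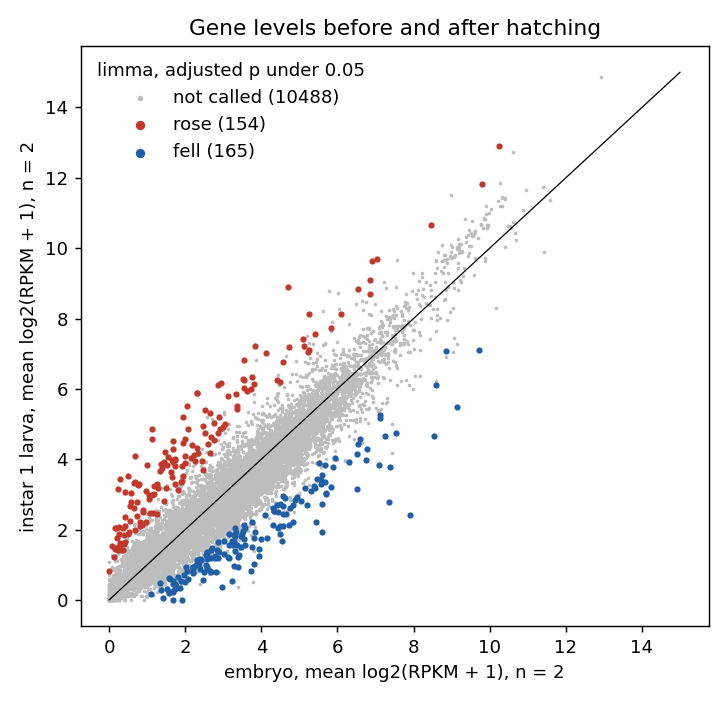
Mean log2(RPKM + 1) of each tested gene in embryo (x axis, n = 2) and in instar 1 larva (y axis, n = 2), with the 154 genes that rose in red, the 165 that fell in blue and the others in grey, and the line marks equal levels. Called genes lie away from the line from low levels upwards, and CFLOG000597.1, the grey point at the top right, is not among them.

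Among the genes that rose, 37 of 154 were under 1 RPKM in both embryo libraries, against 901 of all 10807 tested genes. In both instar 1 libraries 1 of the 154 was still under 1 RPKM, against 845 of all genes. Among the genes that fell, 27 of 165 were under 1 RPKM in both instar 1 libraries and none (0) in both embryo libraries. The same 4 libraries chose the genes, so these counts are favoured by the choice. The filter of 1 RPKM in at least 2 of the 15 libraries was passed only with the help of the embryo libraries by 53 of the genes that fell, and only with the help of the instar 1 libraries by 9 of those that rose. For these genes a difference follows in part from the filter. Separation of the groups alone is common with 2 libraries a side. Both instar 1 libraries lay above both embryo libraries in 21% of all genes, and both below in 25.4%.

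The calls that held on both scales and, on the deposited scale, without each of the 4 libraries in turn were 19 genes that rose, by 1.69 to 3.57 log2 units, and 8 that fell, by 1.96 to 5.49. CFLOG025059.1 and CFLOG025406.1 led the genes that rose and hold identical values in all 15 libraries, so they count as 1 measurement. Their RPKM was 6.13 and 2.5 in the embryo libraries and 69.2 and 49.3 in the instar 1 libraries. The difference was 3.57 ± 0.58 log2 units (SE, n = 2 each, limma, adjusted p = 0.0015; 0.041 rescaled). The SE given for this and the other named genes draws on the spread over all 15 libraries, not on the 4 alone. Both instar 1 libraries lay far above both embryo libraries, on 24 and 16 reads in embryo and 386 and 195 in instar 1 larva. In instar 4 larva the pair stood at 1379.9 and 1016 RPKM and in early pupa at 1.76 and 2.96. It stayed at 4.4 RPKM or less in the late pupal and adult libraries.

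CFLOG011790.1, next in that order and named because the leading pair is 1 measurement, was nearly absent from embryo, at 1.22 and 0.16 RPKM on 14 and 3 reads. It reached 13.1 and 19.6 RPKM in instar 1 larva (3.41 ± 0.54 log2 units, SE, n = 2 each, limma, adjusted p = 0.0013; 2.91 rescaled). It was higher again in instar 4 larva, at 34.5 and 75.5 RPKM, and low in early pupa, at 1.66 and 0.506. In late pupae it was back at 14.7 and 5.15 RPKM (minor) and 3.71 and 6.59 RPKM (major). Unlike the leading pair it was present in adults, at 33.7 and 18.3 RPKM in minor and 22.1 in the 1 male library.

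The largest of the 165 falls on the log2(RPKM + 1) scale was that of CFLOG008802.1, at 186.0 and 301.3 RPKM in embryo and 16.5 and 0.604 in instar 1 larva (-5.49 ± 0.77 log2 units, SE, n = 2 each, limma, adjusted p = 0.00068; 0.011 rescaled). The instar 1 libraries held 1230 and 32 reads of this gene and lie far apart, but both are below both embryo libraries. This gap enters the SE, but it is averaged there with the spread of the other groups. The change was -3.77 to -7.21 with 1 library left out. CFLOG007578.2 was more even, with 193.5 and 95.8 RPKM in embryo and 18.8 and 9.36 in instar 1 larva (-3.26 ± 0.47 log2 units, SE, n = 2 each, limma, adjusted p = 0.00068; -3.10 rescaled). Each of these genes was lower again in instar 4 larva, at 0.021 and 0.055 RPKM for CFLOG008802.1 and 0.923 and 2.29 for CFLOG007578.2. In early pupa CFLOG008802.1 stood at 42.3 and 52.4 RPKM and CFLOG007578.2 at 54.4 and 30.2, each above its larval values. From instar 4 larva to early pupa both rose, by 5.53 ± 0.77 and 4.05 ± 0.47 log2 units (SE, n = 2 each, limma, adjusted p = 3.2e-05 and 2.8e-06).

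**Figure D2:**
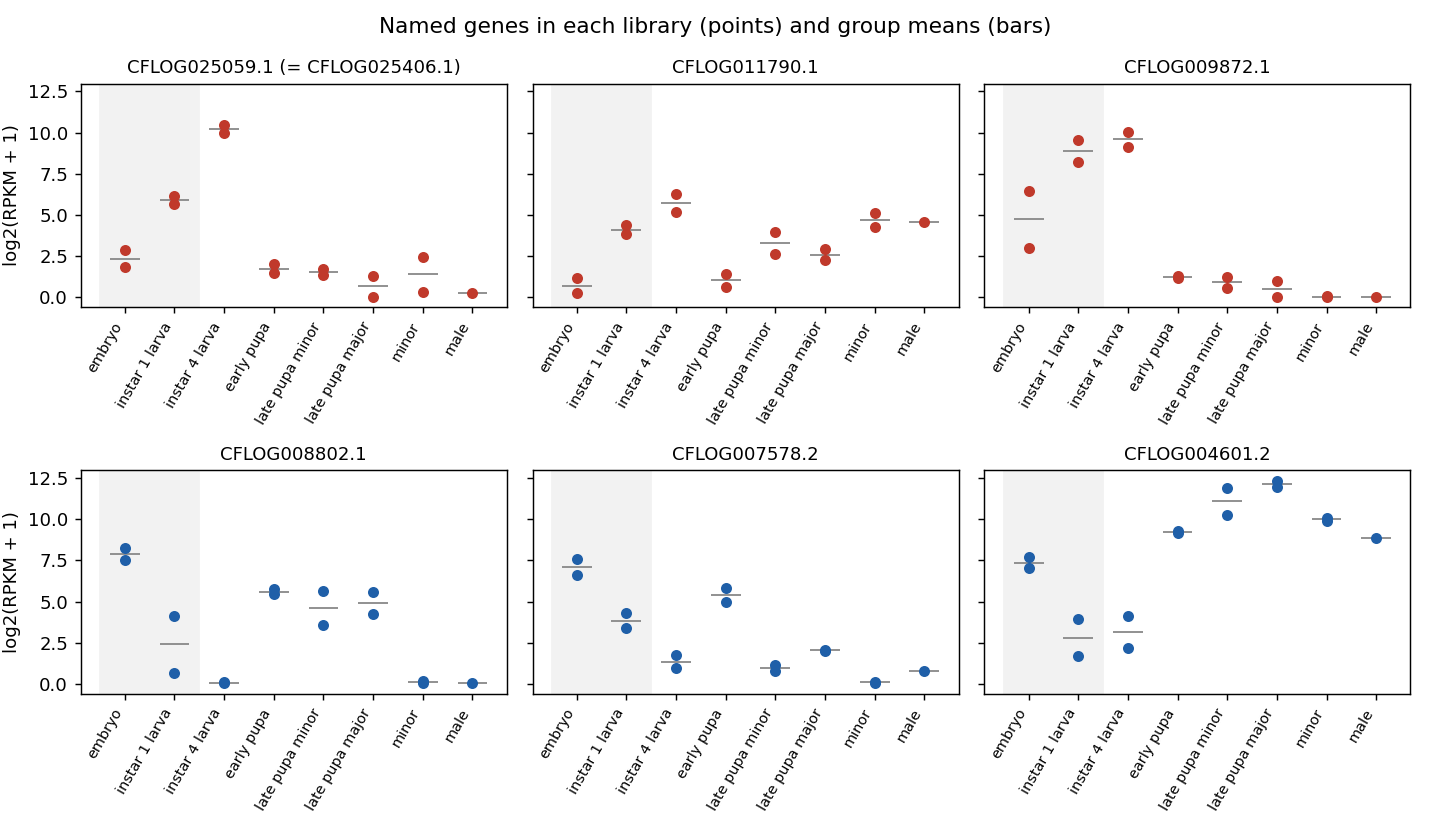
Level of 6 named genes, as log2(RPKM + 1), in each of the 15 libraries (points) with the group means (bars), where red genes rose and blue genes fell from embryo to instar 1 larva, the shaded stages. The upper 3 stand higher in both larval stages than in embryo and early pupa, and the lower 3 stand lower in instar 4 larva than in embryo and early pupa.

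Of the 154 genes that rose at hatching, 94 fell at the end of larval life. This was compared between instar 4 larva and early pupa, whose 4 libraries are none of those that separate the genes at hatching. The 94 are 61% of the genes that rose, and 7 others rose again at that step (4.55%), where 4.33% of all tested genes fell and 6.93% rose. They are also 20.1% of all genes that fell there. The median change of the 154 at that step was -1.82 log2 units, against 0.30 over all genes (rescaled -2.31 against 0.03). Both comparisons take the spread of a gene from the same fit, so a gene of small spread is called more easily in each. With embryo replicate 1 left out 25 of 39 rising genes fell at pupation (64.1%), and with embryo replicate 2 left out 44 of 57 (77.2%). With instar 1 larva replicate 1 left out it was 92 of 163 (56.4%), and with instar 1 larva replicate 2 left out 24 of 28 (85.7%). It was 46.9% without instar 4 larva replicate 2, the lowest share with 1 library of the 4 groups concerned left out, and 76.5% on the rescaled scale, where 10.3% of all genes fell. It was lower still in 2 other settings, with 43 of 103 without the filter (41.7%, against 2.01% of all genes) and 164 of 433 on the libraries of the groups compared alone (37.9%, against 5.14%). Of the 19 rising genes called on both scales and without each of the 4 libraries on the deposited scale, 17 fell at pupation. The identical pair is counted under each ID in the 19 and in the 17. In the mean of each pupal group 11 of the 19 stayed under 1 RPKM. Of all tested genes 87.1% reached that level in at least 1 pupal group.

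A smaller share rose again towards the adult. From late pupa minor to minor, again with no library in common, 62 of the 154 rose (40.3%) and 5 fell (3.25%), where 11.2% of all genes rose and 5.14% fell. Leaving out embryo replicate 2 gave 35.1%, instar 1 larva replicate 2 gave 46.4%, and late pupa minor replicate 2 gave the lowest share with 1 library of these 4 groups left out, 28.6%, where 5.11% of all genes rose. The share was 23.3% on the libraries of the groups compared alone (101 of 433, against 8.56% of all genes) and 24.3% without the filter (25 of 103, against 6.41%). Rescaled it was 52.3% (69 of 132), where the share of all genes was larger too, at 18.3%. With fewer genes called at hatching the number fell too, to 13 of 28 without instar 1 larva replicate 2, 15 of 39 without embryo replicate 1 and 20 of 57 without embryo replicate 2. Of the 94 genes that fell at pupation, 36 rose again to minor, 54 had no call there and 4 fell. Over the 6 groups that the comparison did not use, the highest rescaled group mean was that of instar 4 larva for 70 of the 154 genes (45.5%), against 15.3% of all genes. For 54 (35.1%) it was that of minor, against 24.2% of all genes. Early pupa held it for 7 (4.55%), against 18% of all genes, and male for 16 (10.4%), against 17.5%. On the deposited scale instar 4 larva held it for 62 (40.3%, against 7.66% of all genes) and early pupa for 8 (5.19%, against 18.5%). Minor held it on that scale for 33 (21.4%, against 12.2%) and male for 46 (29.9%, against 51.5%).

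A group mean of at least 1 RPKM was found in instar 4 larva for 123 of the 154 genes that rose (79.9%), and in at least 1 pupal group for 99 (64.3%), where all genes stood at 71% and 87.1%. Genes at that level in instar 4 larva and in neither pupae nor adults were 17 (11%), against 0.509% of all genes. Genes at that level in instar 4 larva and in adults but not in pupae were 20 (13%), against 1.03%. CFLOG009872.1, next after the identical pair by its fall at pupation and so named for the same reason, was at 1 RPKM or more in both larval stages and just above it in early pupa. It stood at 85.7 and 6.93 RPKM in embryo, 300.0 and 745.7 in instar 1 larva, 1065 and 555.5 in instar 4 larva and 1.22 and 1.41 in early pupa. The embryo libraries lie far apart in this gene, and its rise at hatching (4.18 ± 0.73 log2 units, limma, adjusted p = 0.0023) was 2.45 without embryo replicate 2 (adjusted p = 0.058) and 5.90 without embryo replicate 1. The call of CFLOG009872.1 was also lost without instar 1 larva replicate 2 (3.52, limma, adjusted p = 0.058), with no filter (0.068) and with a pseudocount of 0.1 (0.053).

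**Figure D3:**
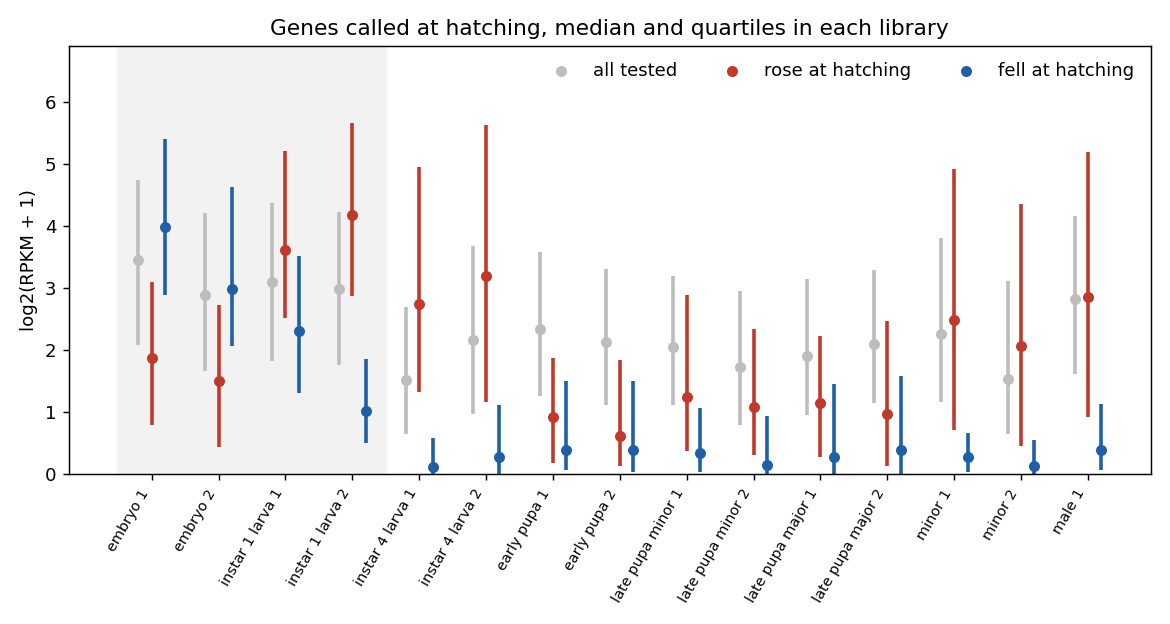
Median (points) and quartiles (vertical lines) of log2(RPKM + 1) in each of the 15 libraries, for the 154 genes that rose at hatching (red), the 165 that fell (blue) and all 10807 tested genes (grey), with the libraries that chose the sets shaded. Red medians run from 11.2 to 17.1 RPKM in instar 1 larva and 0.522 to 0.891 in early pupa, and blue medians stay at 0.313 RPKM or less in all 11 later libraries.

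Of the 165 genes that fell at hatching, 83 (50.3%) had a mean under 1 RPKM in each of the 6 later groups, against 5.27% of all genes. In all, 76 were under 1 RPKM in all 11 later libraries (46.1% against 3.77%). Part of this follows from the filter, which 53 of the 165 passed only with the embryo libraries, against 256 of all 10807 tested genes. Such a gene is low in nearly all other libraries by that choice. No count was made without these 53, so the contrasts with all genes are not read as a result about later stages. The median of the 165 was 14.8 and 6.89 RPKM in the embryo libraries, 3.93 and 1.01 in instar 1 larva and 0.0825 and 0.207 in instar 4 larva. From instar 1 to instar 4 larva, a step that shares the instar 1 libraries, the 165 moved by a median of -1.11 log2 units and all genes by -1.02. Rescaled, the 165 moved by -0.59 and all genes by 0.00.

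A smaller number of the genes that fell were high again in pupae. From instar 4 larva to early pupa 22 of the 165 rose (13.3%) and 4 fell (2.42%), against 6.93% and 4.33% of all genes. A mean of at least 1 RPKM in instar 4 larva was found for 40 of the 165 (24.2%), against 71% of all genes. Most of the 165 therefore had little room to fall, and the low share of falls is not read as a result. For the rises, the difference from the background depends on the libraries. The share was 6.82% without embryo replicate 2, near the 5.84% of all genes in that fit, and it was 2 of 9 genes without embryo replicate 1 (5.92% of all genes). Leaving out instar 1 larva replicate 1 gave 46 of 331 (13.9%, against 6.56%), and leaving out replicate 2 gave 3 of 22 (13.6%, against 6.58%). Omitting instar 4 larva replicates 1 and 2 gave 10% against 2.07% and 24.6% against 12.9%. Omitting early pupa replicates 1 and 2 gave 8.92% against 2.02% and 9.55% against 3.87%. With all libraries, rescaled, 17 of 94 rose (18.1%), against 8.85% of all genes. Genes with a mean of at least 1 RPKM in a pupal group but not in instar 4 larva were 30 of 165 (18.2%), close to the 17.6% of all genes.

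CFLOG004601.2 had the largest rise at pupation among genes that had fallen at hatching on both scales (-4.56 ± 0.67 log2 units at hatching, SE, n = 2 each, limma, adjusted p = 0.00069, but 0.068 without embryo replicate 1). It was at 204.3 and 129.9 RPKM in embryo, 14 and 2.2 in instar 1 larva, 3.45 and 16.6 in instar 4 larva and 615.6 and 563.3 in early pupa. The rise from instar 4 larva was 6.06 ± 0.67 log2 units (SE, n = 2 each, limma, adjusted p = 1.6e-06). Its level was 464.8 RPKM or more in all 9 libraries from early pupa onwards. CFLOG008802.1 had the next largest rise at that step and was at 0.14 RPKM or less in minor and male.

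A single gene held much, but not all, of the late pupal level of the genes that fell. Of each library's summed RPKM, the 78 genes that fell on both scales made up 1.3% and 0.947% (embryo) and 0.21% and 0.0779% (instar 1 larva). They took 6.15% to 18.3% in the late pupal libraries. Without CFLOG005200.2, named after its values were seen, the late pupal share was 1.38% to 3.6%, against 1.25% and 0.909% in embryo. For all 165 genes that fell the share was 2.54% and 1.9% in embryo. It was 8.1% and 13.2% in late pupa minor and 23% and 17.2% in late pupa major. CFLOG005200.2 alone made up 4.77% and 5.76% of all RPKM in late pupa minor and 14.7% and 10.2% in late pupa major. That gene was at 177.3 and 106.3 RPKM in embryo and 29.1 and 48.2 in instar 1 larva (-1.85 ± 0.48 log2 units, SE, n = 2 each, limma, adjusted p = 0.04). It stood at 7.02 and 14.5 RPKM in instar 4 larva and then between 14485 and 47638 RPKM in late pupae. Its fall at hatching missed the threshold without any 1 of the 4 libraries (limma, adjusted p from 0.066 to 0.48).

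A library left out of the test was also compared with what the test then called. For each of the 4 libraries, the genes called without it on the rescaled scale were taken, and the left-out library was placed between the other stage (0) and its own replicate (1). Every gene called this way moved in the same direction in the left-out library, but on the deposited scale not every gene did. The libraries that mark 0 also helped to choose the genes. Agreement in direction is therefore favoured by the choice and is not an independent check. Genes that rose were placed at a median of 0.85 for embryo replicate 1, 0.91 for embryo replicate 2, 0.75 for instar 1 larva replicate 1 (106 genes) and 0.91 for instar 1 larva replicate 2, the last on 4 genes.

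Genes that fell were less even. The 254 genes called without instar 1 larva replicate 1 had come down in that library by a median of 0.42 of the way, and 84 of them (33.1%) lay nearer to replicate 2 than to embryo. Among the 106 that rose, 92 (86.8%) lay nearer to replicate 2. In the test on all libraries, 153 of the 165 genes that fell were higher in instar 1 larva replicate 1 than in replicate 2 after rescaling (92.7%, against 52% of all genes). Of the 154 that rose 19 were higher in replicate 1 (12.3%). In both sets replicate 1 was mostly the library nearer to embryo. The number of genes called to fall depended on the libraries of both stages. It was 9 without embryo replicate 1 and 264 without embryo replicate 2 on the deposited scale, and 5 and 30 rescaled. For the instar 1 libraries it was 331 without replicate 1 and 22 without replicate 2 on the deposited scale, and 254 and 6 rescaled.

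**Figure D4:**
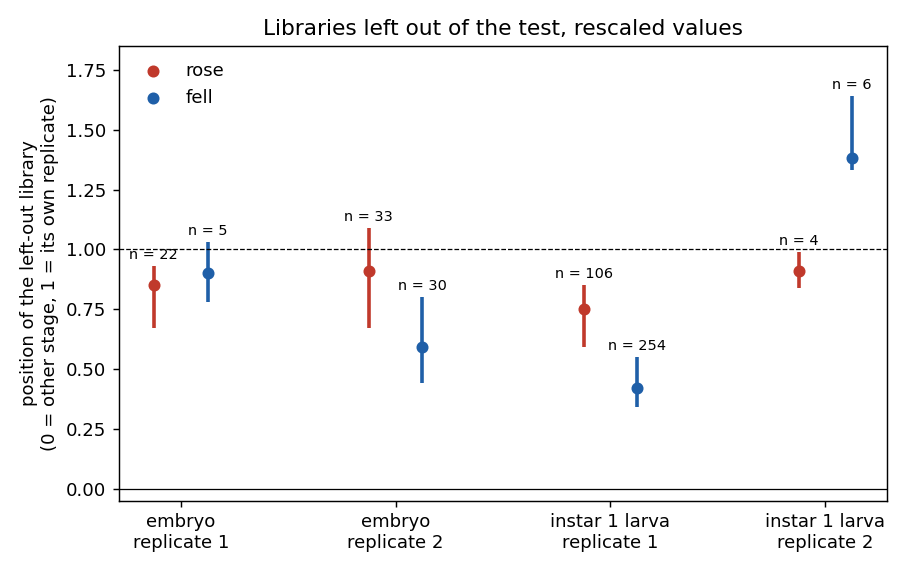
Place of each library among the genes called without it, on rescaled values, where 0 is the mean of the other stage and 1 is the library's own replicate, and points are medians and vertical lines quartiles over the n genes printed. Instar 1 larva replicate 1 stands at 0.75 for genes that rose and at 0.42 for genes that fell, and the replicate 2 points rest on 4 and 6 genes.

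For most genes no change was called, which does not show that they were steady. The 95% interval of the change lay within 1 log2 unit on either side of 0 for 2528 of the 10807 genes (23.4%), and for 5505 of 10619 (51.8%) after rescaling. For the remainder a change of that size was not excluded by the interval. CFLOG000597.1, the most abundant gene of all 4 libraries, is an example. Its level was 7384 and 8093 RPKM in embryo, or 2.1% and 2.87% of all RPKM, and 27116 and 33251 RPKM in instar 1 larva, or 6.87% and 8.25%. The groups do not overlap, but the difference of 1.96 ± 0.85 log2 units did not pass (SE, n = 2 each, limma, adjusted p = 0.3). The spread of this gene in the fit includes that of late pupa major, at 27.4 and 0 RPKM. The 50 most abundant genes held 20.3% and 23.9% of all RPKM in embryo and 32.6% and 37.3% in instar 1 larva, with no overlap between the stages.

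The median recovered length was 915 nt in the genes that rose (97.4% with a length), 1086 nt in those that fell (87.3%) and 1149 nt over all tested genes (97.8%). Among genes called on both scales the medians were 1122 nt (rose) and 1263 nt (fell).

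**Figure D5:**
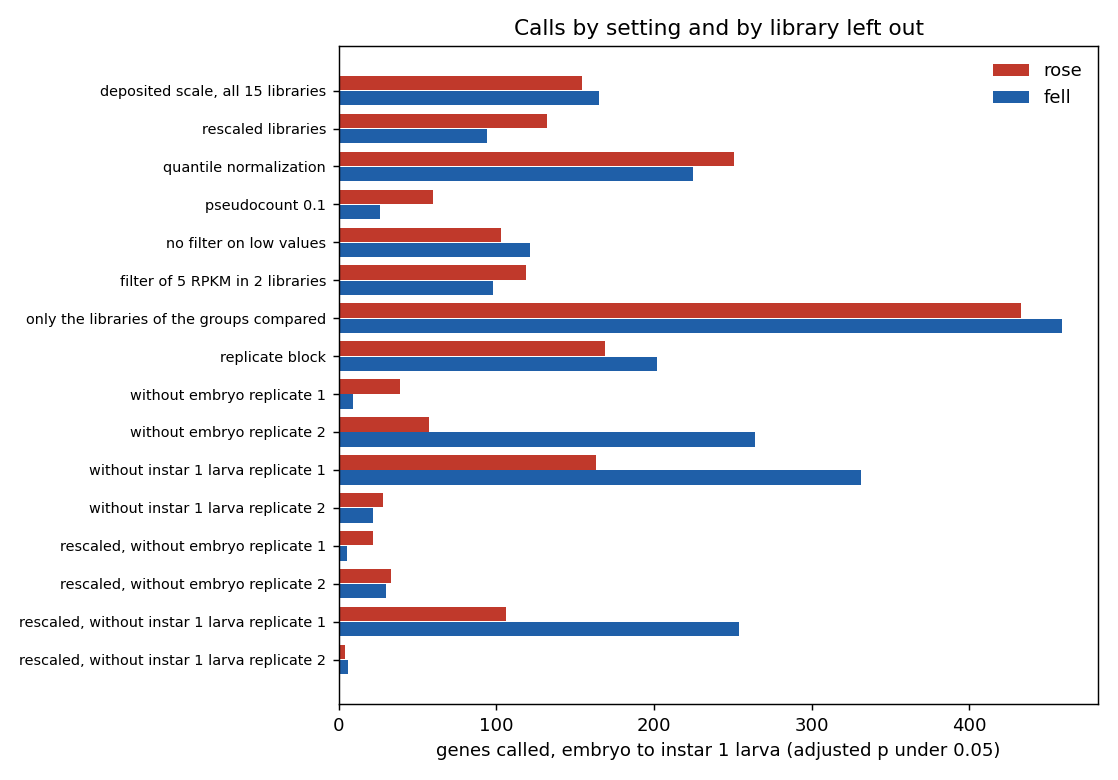
Genes called to rise (red) and to fall (blue) from embryo to instar 1 larva under each setting and with each of the 4 libraries left out, on the deposited and on the rescaled scale. Counts run from 4 to 433 for genes that rose and from 5 to 459 for genes that fell.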

How the data were processed

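Per the labels' protocols, polyadenylated RNA of whole bodies was sequenced from dUTP libraries, which keep the strand. The submitters' processing notes list STAR 2.5.0b and DESeq2 without a role. Genome build, annotation and read counter: not given in the sources used here. RPKM values were deposited by the authors as one table, whose column names gave the sample, and 0 columns were unused.

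The read number by which a library was divided (16740000 to 27350000 in these 4) was recovered from the steps, as was the length of 12864 genes, with values under 1000 reads whole within 0.02. This recovery and the limma step were tested on simulated data. Floors of 3 reads cover counting error only.

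Each gene of 1 RPKM or more in 2 or more libraries was tested with limma 3.58.1 (R 4.3.3). The model of log2(RPKM + 1) had a term for every group, a spread shared by all 15 libraries and eBayes with a trend. Tests were two-sided with Benjamini-Hochberg adjustment over all genes and a threshold of 0.05. Changes on this scale understate those of low genes. For rescaling, a library was divided by the median of its ratios to each gene's geometric mean, over genes above 0 in all libraries.

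Members, lists and tests were chosen with earlier results of these data known. Named genes were the 2 that rose and the 2 that fell most among calls held on both scales and without each library, and, among genes called at hatching and pupation on both scales, the 2 with the largest change back each way. Exceptions are stated beside the gene. The comparison of late pupa minor with minor was added after the stage levels had been seen.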

Additional observations from a re-analysis of the deposited data

How the results depend on the processing

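The 154 genes that rose were 251 with quantile normalization, 60 with a pseudocount of 0.1 and 433 with limma on the 4 libraries alone, and 28 to 163 with 1 library left out. The 165 that fell were 94 rescaled, 26 with a pseudocount of 0.1, 98 with a filter of 5 RPKM and 459 on the 4 libraries alone, and 9 to 331 with 1 library left out. Rescaled, 4 to 106 rose and 5 to 254 fell with 1 left out. Keeping 1 of each set of identical IDs, an alternative added after seeing the data like the rescaled omissions, gave 153 and 165. The 22 genes that fell and then rose at pupation were 37 (quantile), 14 (pseudocount), 9 (no filter) and 92 (only the libraries of the groups compared), and 2 to 46 with 1 library left out. The 94 that rose and then fell were 157, 45, 43 and 164 under the same 4 settings, and 24 to 109 with 1 left out. The 62 that rose and rose again to minor, a comparison added after seeing the data, were 110, 33, 25 and 101, and 13 to 85 with 1 left out. The 2528 genes bounded within 1 log2 unit were 5505 rescaled, 5949 (quantile), 63 (pseudocount), 7956 (no filter) and 936 (filter of 5 RPKM), and 716 to 1273 with 1 left out. The number of genes called at hatching changes with the setting too, so shares are given for quantile normalization, pseudocount, no filter and compared groups alone. Of the genes that fell, 16.4%, 53.8%, 7.44% and 20% rose at pupation. Of all genes 9.28%, 6.92%, 2.59% and 11.8% did. Of the genes that rose, 62.5%, 75%, 41.7% and 37.9% fell at pupation, against 9.24%, 4.68%, 2.01% and 5.14% of all genes. Fewer libraries and more or fewer genes enter the fit in the omissions and filters, and the other causes were not tested.

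The labels do not say whether replicate numbers pair the libraries, and a correlation of deviations cannot settle it. This correlation was 0.03 between embryo and instar 1 larva. Over 21 pairs of groups it ran from -0.29 to 0.20 and was over 0.1 in 3. With the replicate block 169 genes rose and 202 fell.

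Of 154 values of named genes under the alternatives, 140 stayed on their side of the threshold and 13 lost the call. Of the rest 1 gained it and 0 reversed. Most of these genes were named because their calls had held in some of these same settings. The identical pair is counted under each ID, and the 140 include values of CFLOG000597.1, which had no call to lose. These counts therefore do not measure how firm the calls are. The leading pair missed the threshold with a pseudocount of 0.1 (adjusted p = 0.1 in limma), and CFLOG000597.1 passed on the 4 libraries alone. The fit on 4 libraries takes the spread of a gene largely from other genes of like level. A pass there, or its larger number of calls, says little of how far a gene varies between libraries.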
